A study of Homo sapiens with 8 samples.

Results

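The RNA-seq libraries of DCIS.COM cells were compared with those of MCF10A cells, both transduced with the control vector pLOC-empty. The comparison used 2 libraries of each line, 4 of the 8 in the series, and all 13842 genes of the deposited table. MCF10A is an immortal human mammary epithelial line that does not form tumors. DCIS.COM (MCF10 DCIS.COM) belongs to the same lineage: it was derived from xenograft lesions of HRAS-transformed MCF10A cells and forms lesions that resemble ductal carcinoma in situ (DCIS), a non-invasive breast cancer. Both lines carried pLOC-empty, the lentiviral vector without insert that served as control for pLOC-MALINC1, and both had been selected with blasticidin as stably transduced populations. The other 4 libraries, of the same lines with pLOC-MALINC1, entered the estimate of the spread and are used below as a repeat of the line comparison.

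The lines were not grown in the same medium. Both media were DMEM/F-12 with horse serum, but that of MCF10A also held epidermal growth factor (EGF), hydrocortisone, insulin, cholera toxin and antibiotics. EGF signals through its receptor and RAS to the kinase ERK, hydrocortisone activates the glucocorticoid receptor, and cholera toxin raises cAMP. For every gene below, the line and its medium therefore cannot be told apart. The labels do not state whether the 2 libraries of a group came from separate cultures, so the p-values measure the spread between these libraries, which may be technical.

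In breast ducts, an inner layer of luminal cells lies on an outer layer of basal, myoepithelial cells, and the layers are told apart by their keratins, the filament proteins of epithelia. Cultured MCF10A cells are known for a basal keratin profile and for genes of stratified, keratinizing epithelium. HRAS is a small GTPase that passes signals from growth factor receptors to ERK. ERK in turn switches on transcription factors and its own inhibitors, the dual-specificity phosphatases and the Sprouty proteins.

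A gene is called here when limma gave a Benjamini-Hochberg adjusted p below 0.01 over all genes and the lines differed by more than 2-fold. Levels are CPM, reads scaled to the authors' normalized library sizes and undone from the deposited log2 values, and a log2 difference is DCIS.COM minus MCF10A, given ± its standard error. In total, 3959 genes were called (28.6%), of which 2153 were higher in DCIS.COM (15.6%) and 1806 were lower (13.0%). These shares are the background for all counts of list members below. Of the called genes, 1190 had a mean below 5 CPM in both lines. At any fold, 10230 genes (73.9%) had an adjusted p below 0.01 in limma, so the fold threshold decided most calls. The median log2 difference over all genes was 0.03 and the median standard error 0.073. Differences of over 16-fold were fitted for 761 of the called genes, 418 higher and 343 lower in DCIS.COM. The plot of gene levels in both lines shows genes of both directions along the whole range of levels.

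**Figure D1:**
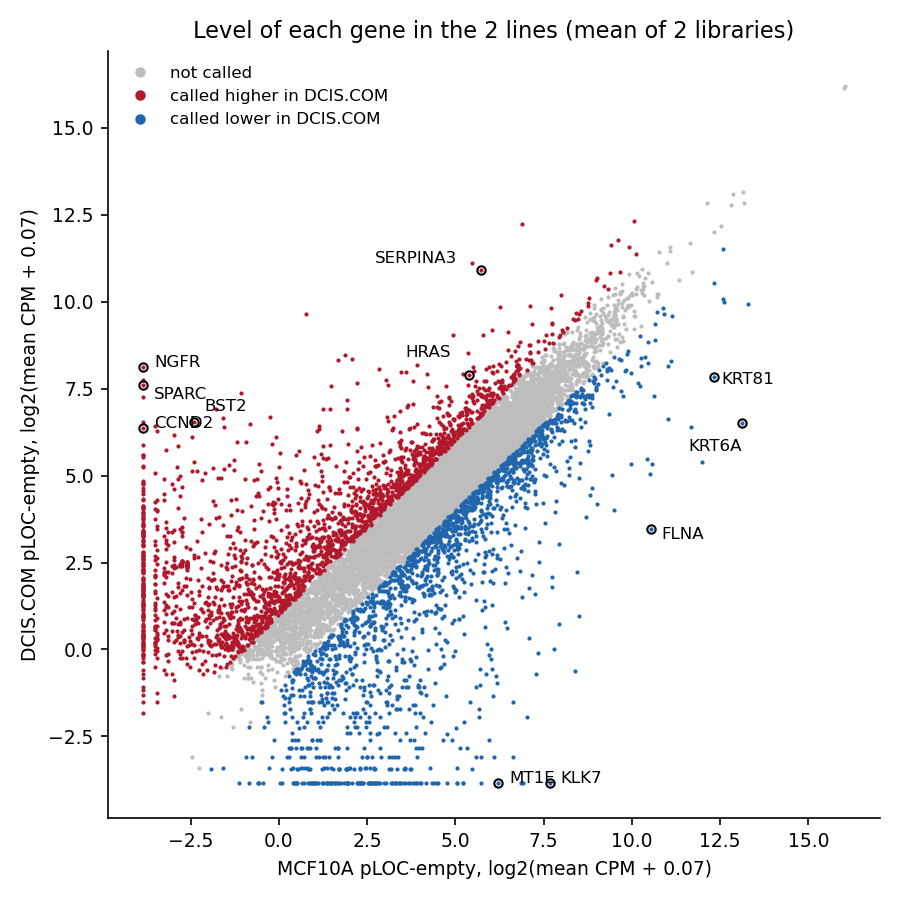
Mean level of each gene in MCF10A (horizontal) and DCIS.COM (vertical), both with pLOC-empty, as log2(mean CPM + 0.07) over 2 libraries each. Red points are the 2153 genes called higher and blue points the 1806 called lower in DCIS.COM, and the points on the left and lower edges had 0 reads in 1 line.

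The 4 libraries held 20604377 to 30404062 reads on genes, and the replicates of each line correlated with Pearson's r of 0.996 over log2 CPM. A count of 1 read was worth 0.0345 to 0.0477 CPM. Where both libraries of a line had 0 reads, the level is below a floor of 3 reads over both (0.0582 CPM in MCF10A, 0.0708 CPM in DCIS.COM), and the fold against it is a lower bound. Where they held 1 to 3 reads each at most, the ratio is given with its 95% exact counting interval, which covers counting error only. Genes of small structural RNAs took 14.9 to 19.2% of the reads, with the higher shares in DCIS.COM. Totals without them moved the median log2 difference of all genes to 0.15.

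In the pLOC-MALINC1 libraries 3686 genes were called between the lines (26.6%). Of the genes called with pLOC-empty, 2787 were called there too and in the same direction, which is 70.4% of the first list and 75.6% of the second. A further 34 genes were called in opposite directions. These are other libraries, but of the same lines in the same media. MALINC1 itself, the lncRNA carried by that vector, had 1.0 and 1.51 CPM in MCF10A and 1.35 and 1.15 CPM in DCIS.COM with pLOC-empty (not called), and averaged 12.5 and 21.8 CPM in the pLOC-MALINC1 libraries.

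As to cell type, both lines carried epithelial markers, and few markers of fibroblasts, endothelium or leukocytes were in the table. Mesenchymal genes, some of them high in DCIS.COM, are given below. Of 7 markers each of fibroblasts, endothelium and leukocytes, the table listed 1, 1 and 2. The level of COL1A1, a fibroblast collagen, was 15.1 and 15.9 CPM in MCF10A and 2.01 and 1.91 CPM in DCIS.COM. PECAM1, an endothelial adhesion molecule, had 1.03 and 0.974 CPM in MCF10A and 6.06 and 7.21 CPM in DCIS.COM. The leukocyte genes CD14 and CD68 were at 2.83 and 2.79 and 11.4 and 11.2 CPM in MCF10A and at 0.606 and 0.573 and 3.59 and 3.53 CPM in DCIS.COM. COL1A1 and CD68 in MCF10A and PECAM1 in DCIS.COM were above 5 CPM, and the highest of these levels was 15.9 CPM.

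Of 20 basal markers, 10 were lower and 3 higher in DCIS.COM, with a median log2 difference of -1.10 against 0.03 over all genes. KRT6A, a keratin of activated and stratified epithelium, had 8909.7 and 8820.0 CPM in MCF10A and 93.5 and 87.1 CPM in DCIS.COM, a 98.2-fold difference. KRT14, the classical keratin of basal cells, had 1479 and 1424 CPM in MCF10A and 33.6 and 32.5 CPM in DCIS.COM (43.9-fold lower in DCIS.COM). For KRT5, the partner of KRT14, the levels were 6239 and 6060.0 CPM against 1053 and 1084 CPM. All 3 keratins lay far apart between the lines and close together within them. The keratins KRT16 and KRT17 were also lower, by 21.3- and 10.3-fold. These keratin genes have close paralogs and pseudogenes, between which the counting could split reads.

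Not every basal marker followed. NGFR, a neurotrophin receptor of basal and neural crest cells, had 0 reads in both MCF10A libraries and 271 and 282 CPM in DCIS.COM, at least 4748-fold higher. TP63, the transcription factor that maintains basal cells, had 5.24 and 4.6 CPM in MCF10A and 55.8 and 57.4 CPM in DCIS.COM (log2 difference 3.51 ± 0.065). KRT15 differed by less than 2-fold, with 4989.9 and 5315 CPM in MCF10A and 3984 and 4188 CPM in DCIS.COM. The luminal list was mixed, with 4 of 18 higher (22.2%) and 3 lower (16.7%), against 15.6% and 13.0% of all genes. KRT18, a keratin of simple epithelium, had 479 and 531 CPM in MCF10A and 1579 and 1596 CPM in DCIS.COM, and its partner KRT8 had 792 and 834 CPM in MCF10A and 1839 and 1865 CPM in DCIS.COM. Both, together with the adhesion molecule EPCAM (62.2 to 280.1 CPM on average) and the pioneer factor FOXA1 (9.27 to 25.3 CPM), were higher in DCIS.COM. The surface protein CD24 was lower, with 3249 and 3285 CPM in MCF10A and 82.9 and 84.8 CPM in DCIS.COM. The mucin MUC1 and the keratin KRT7 were lower as well, by 27.1- and 3.47-fold. The hormone receptor gene ESR1 was low in every library, with 1.72 and 1.82 CPM in MCF10A and 2.24 and 2.2 CPM in DCIS.COM.

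Of 10 contractile genes of myoepithelium, 4 were lower, among them TAGLN, an actin-binding protein (138 and 150.2 CPM in MCF10A and 4.57 and 4.15 CPM in DCIS.COM), and the myosin light chain MYL9 (17.4 and 14.8 CPM in MCF10A and 0.42 and 0.286 CPM in DCIS.COM). The smooth muscle actin ACTA2 had 6.31 and 5.76 CPM in MCF10A and 6.06 and 6.25 CPM in DCIS.COM, and the myosin kinase MYLK was 6.31-fold higher. The lists of this comparison are shown together in the bar chart of shares called.

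**Figure D2:**
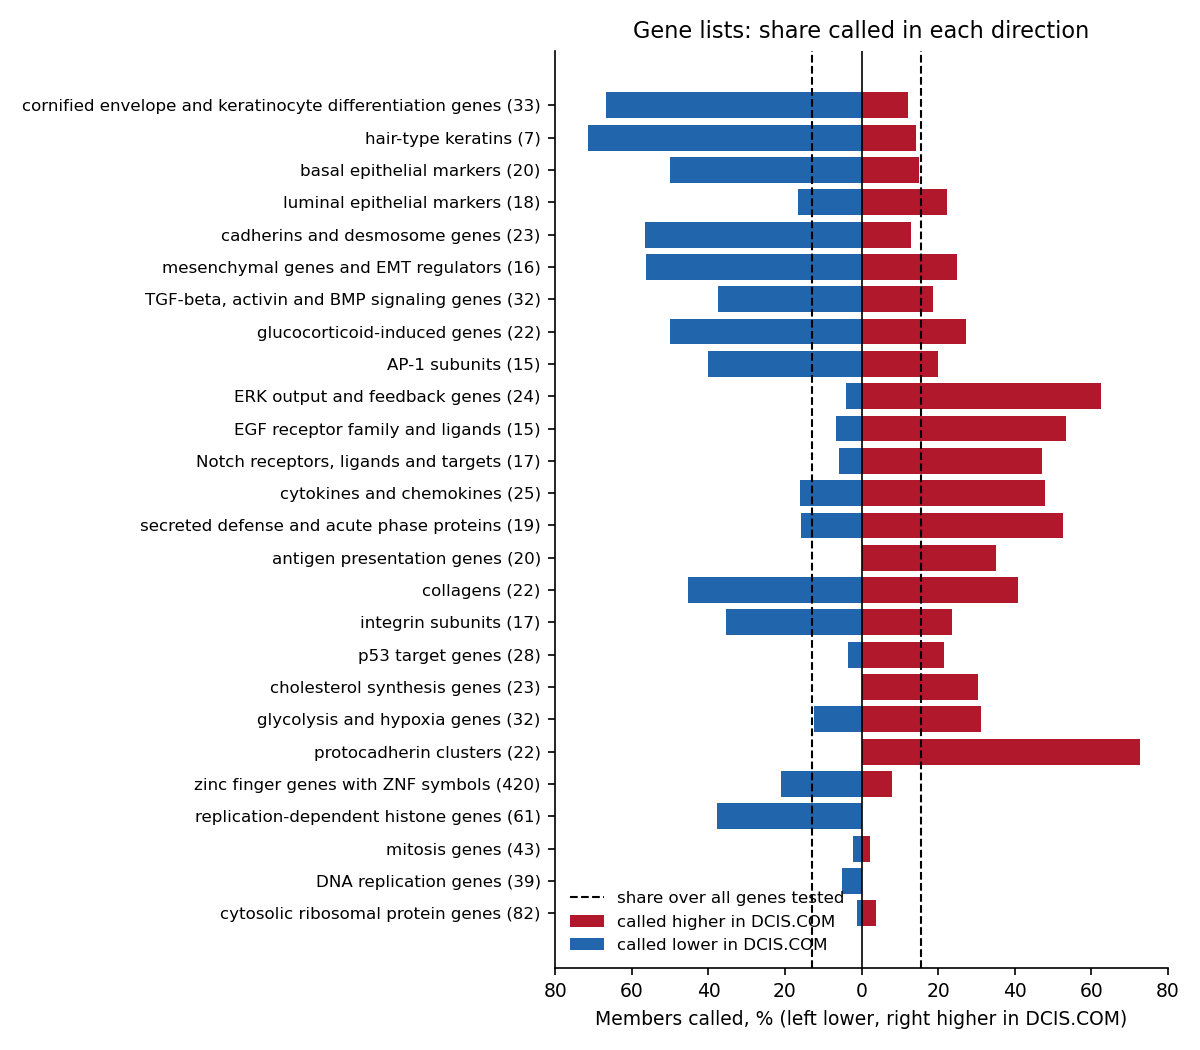
Share of the members of 26 gene lists that were called higher (red, to the right) and lower (blue, to the left) in DCIS.COM, in % of the members in the table, whose number stands in brackets. The dashed lines give the shares over all genes tested, 15.6% higher and 13.0% lower. Cornification, hair keratins, desmosomes and glucocorticoid-induced genes lean to the left, and ERK output, EGF ligands, defense proteins and protocadherins to the right.

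The 15 genes with the largest rise and the 15 with the largest fall were nearly all at or near 0 reads in 1 line. After NGFR, the largest rises were those of CALB2, which encodes the calcium-binding protein calretinin (216 and 212 CPM in DCIS.COM), SPARC, a collagen-binding matrix protein (196 and 193 CPM), CDH19, a cadherin (153 and 155 CPM), CPVL, a carboxypeptidase (91.7 and 93.7 CPM), and CCND2, a cyclin of the G1 phase (83.2 and 80.8 CPM). Each of these 5 genes had 0 reads in both MCF10A libraries. The bounds ran from at least 1410.4-fold higher for CCND2 to at least 3682-fold for CALB2. The chloride channel ANO1, the fibrillin FBN2, the guanylate cyclase subunit GUCY1A1, the calcium-binding protein S100B, the matrix protein FREM2, the serine protease PRSS21, the membrane proteins ITM2C and SHISA2, and the phospholipase PLCB1 completed the list. ANO1 had 83.4 and 87.3 CPM in DCIS.COM against 1 read in MCF10A, a ratio of 4402 (counting interval 789.5 to 173902). PLCB1 had 35.7 and 40.1 CPM in DCIS.COM and 0 reads in MCF10A.

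On the other side stood KLK7, a protease that sheds cornified cells, with 202 and 211 CPM in MCF10A and 0 reads in both DCIS.COM libraries (at least 2909-fold lower). VSTM2L had 117 and 123 CPM against 0 reads (at least 1691-fold lower). The metallothionein MT1E, a metal-binding protein, had 80.3 and 68.5 CPM against 0 reads (at least 1062-fold lower). MSLN, which encodes mesothelin, had 101 and 97.4 CPM against 2 reads in all, a ratio of 2104 (counting interval 582 to 17382). FAM83A, a signaling adapter, had 329 and 345 CPM in MCF10A and 0.839 and 0.334 CPM in DCIS.COM. The remaining genes were the lipoxygenase ALOX15B, NCCRP1, the X-linked ARMCX3 and MCF2, the skin caspase CASP14, JPH2, PLCXD3 and the histone genes H4C13, H4C6 and H3C11. CASP14 had 32.4 and 34 CPM in MCF10A and 0 reads in DCIS.COM. All 30 genes of the list were called in the same direction in the pLOC-MALINC1 libraries.

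By a stricter rule, 249 genes had at least 5 CPM in both libraries of 1 line and 3 reads or fewer in each of the other. Of these, 149 were expressed in DCIS.COM and 100 in MCF10A. With pLOC-MALINC1, 78 and 57 of them met the same rule.

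The genes of cornification, the program by which keratinocytes build a protein shell, were lower in DCIS.COM. Of 33 listed genes in the table, 22 were lower and 4 higher, with a median log2 difference of -1.37. Involucrin, a scaffold of that shell, is encoded by IVL, which had 89.3 and 91.2 CPM in MCF10A and 4.48 and 4.54 CPM in DCIS.COM. TGM1, the transglutaminase that cross-links the shell, had 53.9 and 49.7 CPM in MCF10A and 0.653 and 0.573 CPM in DCIS.COM (75.9-fold lower). KLK8, another protease of the upper skin, had 12.3 and 13.6 CPM in MCF10A and 0 reads in DCIS.COM. The small proline-rich genes SPRR2A and SPRR2D were lower by 4.52- and 6.11-fold, and the differentiation keratin KRT13 by 10.4-fold. The genes that were higher included PI3, the elastase inhibitor elafin (2.79 and 1.82 CPM in MCF10A and 48 and 42.9 CPM in DCIS.COM), and S100A9, a calprotectin subunit (6.59 and 7.35 CPM in MCF10A and 41.5 and 37.9 CPM in DCIS.COM). Of 5 kallikrein-related peptidases in the table, 4 were lower.

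Hair-type keratins, which are made in hair follicles and in some breast cell lines, were lower in 5 of 7 cases. KRT81 had 5227 and 5148 CPM in MCF10A and 226 and 226 CPM in DCIS.COM, a 22.9-fold difference (adjusted p = 3.37e-17 in limma). Its close relatives KRT86 and KRT83 were lower by 15- and 8.27-fold, although KRT83 differed between the MCF10A libraries (15.7 and 37.9 CPM) and was not called without DCIS.COM replicate 1 or MCF10A replicate 2. The higher member of the list, KRT23, is not itself a hair keratin, and had 17.8 and 20.6 CPM in DCIS.COM against 0.103 and 0.31 CPM in MCF10A.

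Of 23 cadherin and desmosome genes, 13 were lower and 3 higher in DCIS.COM. E-cadherin, the main cadherin of epithelia, is encoded by CDH1 and had 631 and 632 CPM in MCF10A and 206 and 225 CPM in DCIS.COM (log2 difference -1.55 ± 0.047). Desmoplakin (DSP), which links desmosomes to keratins, had 896 and 924 CPM in MCF10A and 252 and 267 CPM in DCIS.COM, and plakoglobin (JUP) was 2.98-fold lower. The desmosomal cadherins DSG3 and DSC2 were lower by 2.75- and 2.64-fold. CDH4 had 8.83 and 10.5 CPM in MCF10A and 2 reads in DCIS.COM. The mesenchymal cadherins CDH13 and CDH11 ran the other way. Both had 0 reads in MCF10A and 16.7 and 16.8 CPM and 10.7 and 9.55 CPM in DCIS.COM. Of 19 tight junction genes, only CLDN1 (3.25-fold higher) and 2 lower genes, TJP1 among them (3.14-fold), were called.

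The genes of the epithelial to mesenchymal transition (EMT), in which epithelial cells take on mesenchymal traits, went both ways. Of 16 listed genes, 9 were lower and 4 higher in DCIS.COM. Fibronectin (FN1), an adhesive matrix protein, had 1489.6 and 1554 CPM in MCF10A and 39.1 and 40.9 CPM in DCIS.COM, and TGFBI, a matrix protein induced by TGF-beta, had 1405 and 1350.4 CPM in MCF10A and 45 and 44.3 CPM in DCIS.COM. The EMT transcription factors SNAI2 and ZEB2 were lower too. SNAI2 had 89.1 and 84.7 CPM in MCF10A and 16.1 and 16.2 CPM in DCIS.COM, and ZEB2 had 5.69 and 5.27 CPM in MCF10A against 1 read in DCIS.COM. Vimentin (VIM), a mesenchymal filament protein, was higher, with 66.9 and 63.6 CPM in MCF10A and 572 and 589 CPM in DCIS.COM. AXL, a receptor tyrosine kinase, had 2.86 and 1.77 CPM in MCF10A and 57.8 and 56.2 CPM in DCIS.COM, and SPARC and CDH11 also belong to the list.

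Matrix genes went both ways. Among 22 collagens, 9 were higher and 10 lower, against 15.6% and 13.0% of all genes. The basement membrane collagens COL4A1 and COL4A2 were lower (378 to 84.8 CPM and 629.6 to 258 CPM on average), and COL4A4 had 63.2 and 60.7 CPM in MCF10A and 0.933 and 0.716 CPM in DCIS.COM. Higher were COL9A3, a cartilage collagen (53.1 and 52.2 CPM in DCIS.COM against 1 read in each MCF10A library), COL18A1 (2.0 and 2.13 CPM in MCF10A and 76.5 and 78 CPM in DCIS.COM) and COL8A1 (6.07-fold). Among 35 laminins and glycoproteins, 13 were higher and 13 lower. LAMA3 and LAMB3, which encode chains of laminin-332, an anchor of basal cells, were lower by 7.04- and 2.46-fold. FBN1 had 242 and 252 CPM in MCF10A and 1.54 and 1.67 CPM in DCIS.COM, while its relative FBN2 had 71.7 and 83.6 CPM in DCIS.COM against 1 read in MCF10A. Thrombospondin 1 (THBS1) had 796 and 779.7 CPM in MCF10A and 3663 and 3371 CPM in DCIS.COM.

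Proteases and integrins were also mixed. The metalloproteinase list had 7 higher and 5 lower of 23 (8 lower with quantile normalization, 4 higher among genes with a mean of 5 CPM or more), with the inhibitor TIMP3 at 78.3 and 74 CPM in MCF10A and 888 and 934 CPM in DCIS.COM and its relative TIMP2 at 148 and 151 CPM in MCF10A and 27.1 and 29.7 CPM in DCIS.COM. In the plasminogen system, which dissolves fibrin and matrix, the activator PLAT had 7.0 and 7.17 CPM in MCF10A and 265 and 271 CPM in DCIS.COM, while the activator PLAU was 4.75-fold lower. Of 17 integrin subunits, 6 were lower and 4 higher. ITGB1, the shared beta 1 subunit, had 2190.4 and 2279 CPM in MCF10A and 751 and 784 CPM in DCIS.COM, and ITGA5, the fibronectin receptor subunit, was 6.71-fold lower. ITGB4, the hemidesmosome subunit, was 3.15-fold higher.

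HRAS had 41.8 and 41.7 CPM in MCF10A and 243 and 235 CPM in DCIS.COM (log2 difference 2.52 ± 0.04, adjusted p = 3.20e-14 in limma), whereas NRAS was not called (log2 difference -0.61). The counts do not separate a mutant from the normal HRAS transcript. Of 24 genes of ERK output and feedback, 15 were higher in DCIS.COM and 1 was lower, with a median log2 difference of 1.5. DUSP6, the phosphatase that inactivates ERK, had 12.9 and 14.6 CPM in MCF10A and 127 and 137 CPM in DCIS.COM. The Sprouty genes SPRY1, SPRY2 and SPRY4, which dampen RAS signaling, were higher (0.32 to 19.4, 15.8 to 50.6 and 2.15 to 18.2 CPM on average). SPRED1 and SPRED2, which act in the same way, were 2.94- and 2.82-fold higher. The ETS factors ETV1, ETV4 and ETV5 and the immediate-early factor EGR1 were all higher, with EGR1 at 0.276 and 0.221 CPM in MCF10A and 5.32 and 5.25 CPM in DCIS.COM and ETV5 at 21.9 and 22.6 CPM in MCF10A and 123 and 126 CPM in DCIS.COM. The cytokine LIF had 3.52 and 3.98 CPM in MCF10A and 145 and 143 CPM in DCIS.COM. ELK3 was the lower gene (3.38-fold). Not called were, among others, MYC (0.34), CCND1 (-0.37), FOSL1 (0.22) and IER3 (-0.01). In the pLOC-MALINC1 libraries 10 of the genes were called in the same direction, and the median log2 difference was 0.72.

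The medium of DCIS.COM held no added EGF. Of 15 receptors, ligands and regulators of the EGF receptor family, 8 were higher and 1 was lower. EREG (epiregulin) had 3.38 and 4.03 CPM in MCF10A and 118 and 121 CPM in DCIS.COM, and HBEGF had 2.14 and 1.99 CPM in MCF10A and 40.4 and 40.8 CPM in DCIS.COM. TGFA was 3.28-fold higher. NRG1, a ligand of ERBB3, had 25.5 and 23.7 CPM in DCIS.COM against 3 reads in MCF10A, a ratio of 423 (counting interval 144 to 2055). The ligand EPGN was lower, with 51.8 and 55.8 CPM in MCF10A and 4.2 and 3.34 CPM in DCIS.COM. The receptors differed by less than 2-fold, with log2 differences of -0.68 for EGFR, -0.21 for ERBB2 and -0.68 for ERBB3. Their inhibitors LRIG1 and ERRFI1 were 23.6- and 2.92-fold higher. The pLOC-MALINC1 libraries repeated 7 of the 9 calls.

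The selected genes of the following groups are drawn per library in the dot plot of CPM.

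**Figure D3:**
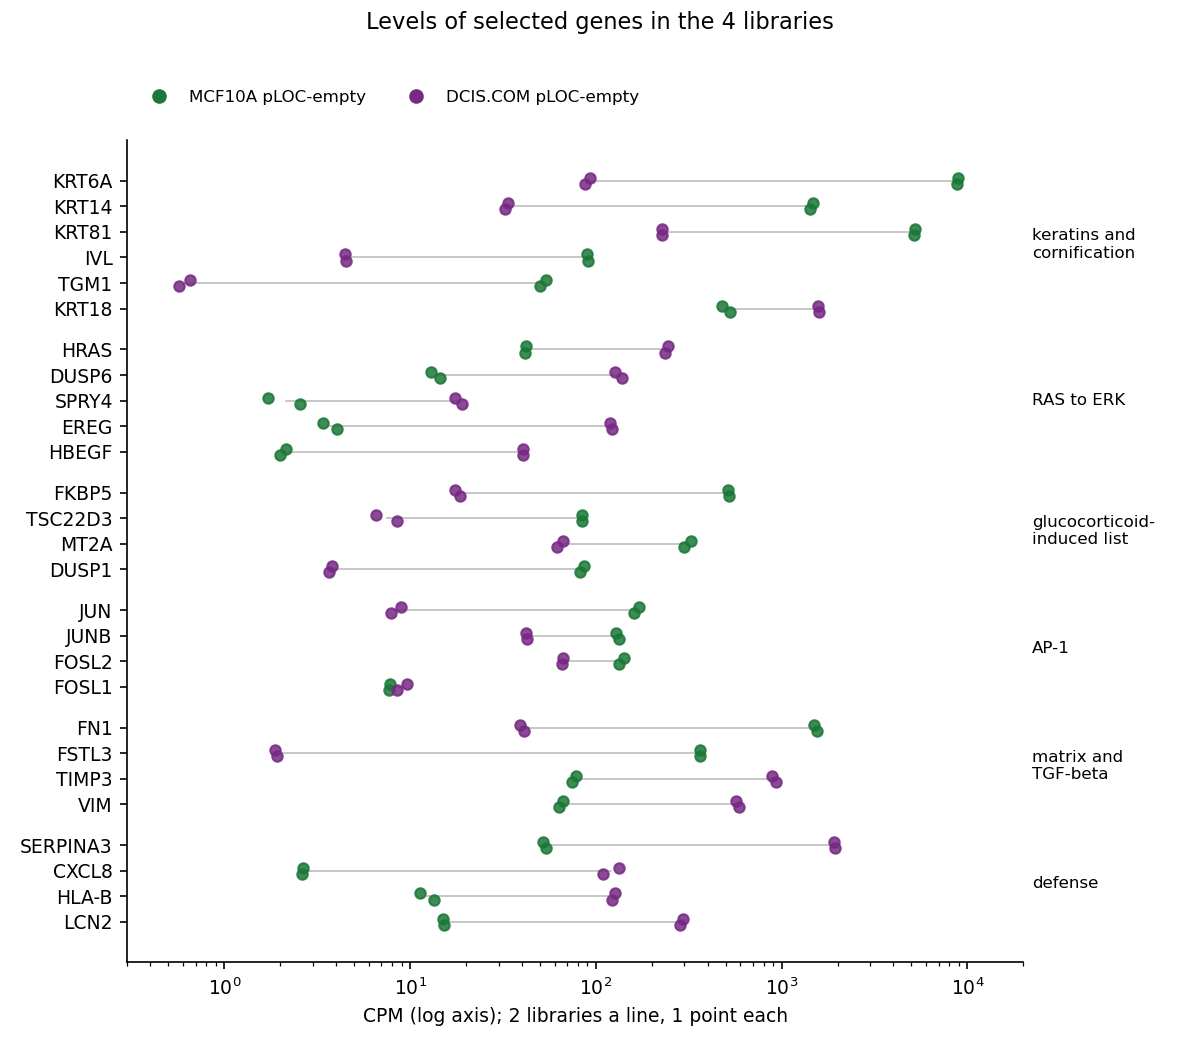
CPM of 27 genes in the 2 MCF10A (green) and the 2 DCIS.COM libraries (purple) with pLOC-empty, on a log axis, with a grey line between the line means. The libraries of a line lie close together, and the lines do not overlap for any gene drawn, FOSL1 being the pair with the smallest gap (7.83 and 7.7 CPM in MCF10A and 9.61 and 8.55 CPM in DCIS.COM). With 2 libraries a line, the same held for 12477 of all 13842 genes (90.1%), so it does not set these genes apart.

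AP-1 is a dimer of JUN and FOS family proteins. Of 15 subunits and relatives, 6 were lower and 3 higher in DCIS.COM. JUN had 171 and 160.3 CPM in MCF10A and 8.95 and 7.88 CPM in DCIS.COM (adjusted p = 3.60e-14 in limma), a 19.5-fold difference. JUNB had 128 and 133 CPM in MCF10A and 42.1 and 42.5 CPM in DCIS.COM, JUND 31.7 and 31.8 CPM in MCF10A and 15.4 and 15.3 CPM in DCIS.COM, and FOSL2 141 and 134 CPM in MCF10A and 66.2 and 65.7 CPM in DCIS.COM. MAF, a more distant relative, was 11.5-fold higher. FOS was low in all libraries, with 3.86 and 4.03 CPM in MCF10A and 2.19 and 2.43 CPM in DCIS.COM, and was not called, although it passed with quantile normalization (-1.02). Among genes with a mean of 5 CPM or more, 1 gene of the list was higher. With totals without small RNAs, FOSL2 and JUND were less than 2-fold lower (-0.94 and -0.93).

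The letters that AP-1 binds are TGACTCA or TGAGTCA. Among RefSeq promoter windows, of which the 250 bases before the start were read on both strands, they stood in at least 1 window of 7.63% of the genes called lower, of 6.07% of those called higher and of 4.31% of the 10623 tested genes that had a window. Over windows rather than genes the shares were 5.2, 4.17 and 3.13%. Over the whole cornification list, 66.7% of the 33 genes were called lower, and a link of the letters with the calls was not tested. Of 22 cornification genes with a window, 7 held the letters, and all 7 were called lower: SPRR1A, SPRR1B, SPRR2A, SPRR3, IVL, SBSN and ECM1. Of these, SPRR1B, SBSN and ECM1 lay close to the 2-fold threshold and were not called with a pseudocount of 1 CPM (-0.96, -0.65 and -0.88). The windows of 3 such genes that were lower and of 2 that were higher are given 5′ to 3′ in the direction of the gene, with the AP-1 letters in capitals. They show that the same letters stand before genes of either direction. All are GRCh38.p14, IVL at chr1:152908296-152908545 on the plus strand, SPRR2A at chr1:153057513-153057762 on the minus strand, LAMA3 at chr18:23872770-23873019 on the plus strand, CXCL8 at chr4:73740319-73740568 on the plus strand and S100A2 at chr1:153565845-153566094 on the minus strand.
IVL, lower in DCIS.COM: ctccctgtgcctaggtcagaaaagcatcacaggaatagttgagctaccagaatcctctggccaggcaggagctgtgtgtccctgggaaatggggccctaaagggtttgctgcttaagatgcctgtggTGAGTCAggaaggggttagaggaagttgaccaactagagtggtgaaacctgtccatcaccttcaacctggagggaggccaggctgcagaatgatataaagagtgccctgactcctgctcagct
SPRR2A, lower in DCIS.COM: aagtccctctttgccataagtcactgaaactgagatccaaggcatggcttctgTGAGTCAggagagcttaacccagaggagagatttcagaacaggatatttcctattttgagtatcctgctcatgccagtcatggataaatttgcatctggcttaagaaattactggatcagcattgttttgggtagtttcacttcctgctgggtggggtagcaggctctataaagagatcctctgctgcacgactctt
LAMA3, lower in DCIS.COM: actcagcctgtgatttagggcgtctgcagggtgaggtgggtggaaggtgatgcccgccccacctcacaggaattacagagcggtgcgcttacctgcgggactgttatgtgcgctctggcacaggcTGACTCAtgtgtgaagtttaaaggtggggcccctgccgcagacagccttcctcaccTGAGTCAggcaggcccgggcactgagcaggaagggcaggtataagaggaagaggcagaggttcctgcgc
CXCL8, higher in DCIS.COM: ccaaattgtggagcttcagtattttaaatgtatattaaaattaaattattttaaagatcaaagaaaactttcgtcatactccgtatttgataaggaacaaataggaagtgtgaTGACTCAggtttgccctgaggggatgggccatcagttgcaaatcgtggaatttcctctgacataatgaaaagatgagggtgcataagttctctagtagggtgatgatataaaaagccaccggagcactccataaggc
S100A2, higher in DCIS.COM: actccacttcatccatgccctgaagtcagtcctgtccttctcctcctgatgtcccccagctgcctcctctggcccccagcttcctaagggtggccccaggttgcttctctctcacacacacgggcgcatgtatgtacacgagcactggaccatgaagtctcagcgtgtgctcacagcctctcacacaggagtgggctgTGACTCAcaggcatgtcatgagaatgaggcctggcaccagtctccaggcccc

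The letters begin 123 bases before the start in IVL, 197 in SPRR2A, 125 and 69 in LAMA3, 137 in CXCL8 and 52 in S100A2. S100A2, an epithelial calcium-binding protein, had 1089.8 and 1059 CPM in MCF10A and 5114 and 5095 CPM in DCIS.COM. A match is a description of the letters and not of binding.

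Hydrocortisone was in the medium of MCF10A alone, and 11 of 22 listed glucocorticoid-induced genes were lower in DCIS.COM, with 6 higher and a median log2 difference of -1.14. FKBP5, a chaperone of the glucocorticoid receptor, had 513 and 519 CPM in MCF10A and 17.5 and 18.5 CPM in DCIS.COM (28.6-fold lower, adjusted p = 9.31e-17 in limma). TSC22D3, which encodes the anti-inflammatory protein GILZ, had 83.9 and 83.8 CPM in MCF10A and 6.58 and 8.5 CPM in DCIS.COM, and the clock gene PER1 had 38.1 and 38.6 CPM in MCF10A and 11.8 and 11.5 CPM in DCIS.COM. The factors ZBTB16 and KLF9 were lower too, ZBTB16 with 9.55 and 9.08 CPM in MCF10A and 0 reads in DCIS.COM, and KLF9 with 23.1 and 25.1 CPM in MCF10A and 1.63 and 2.72 CPM in DCIS.COM. The metallothioneins MT1X and MT2A, which are also induced by metals, had 59.4 and 55.1 CPM and 324 and 298 CPM in MCF10A against 1.73 and 1.24 CPM and 66.3 and 61.7 CPM in DCIS.COM. They are near-identical in sequence, so that reads could be split among them. DUSP1, a phosphatase of stress kinases, had 86.6 and 81.9 CPM in MCF10A and 3.78 and 3.68 CPM in DCIS.COM.

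Higher members of the list were LCN2, an iron-binding defense protein (15 and 15.1 CPM in MCF10A and 294 and 282 CPM in DCIS.COM), DDIT4, a stress-induced inhibitor of mTOR (2.73-fold), ERRFI1 and CEBPD (2.45-fold). The receptor gene NR3C1 itself had 156 and 151 CPM in MCF10A and 106 and 109.7 CPM in DCIS.COM, less than 2-fold apart. With pLOC-MALINC1, 13 of the genes were called in the same direction. A full glucocorticoid response element, the arms AGAACA and TGTTCT with 3 bases between them, was in the window of none of the tested genes. Only these exact letters were searched, and they were absent from the windows of called and uncalled genes alike. The search therefore could not tell the lower genes from the others, and a role of such elements was not tested.

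The cAMP list was divided. Of 14 genes, 5 were higher and 4 lower in DCIS.COM. SIK1, a kinase induced by cAMP, had 192 and 185 CPM in MCF10A and 32.3 and 31.5 CPM in DCIS.COM, and the phosphodiesterase PDE4D had 25.9 and 24.7 CPM in MCF10A and 9.42 and 10.9 CPM in DCIS.COM. PPARGC1A, a coactivator of mitochondrial genes, and the nuclear receptor NR4A1 were higher, with 21.3 and 21.1 CPM and 9.05 and 9.88 CPM in DCIS.COM against 0.103 and 0.0443 CPM and 0.276 and 0.354 CPM. The cAMP response element, TGACGTCA, stood before 3.82% of the genes called lower, 2.18% of those called higher and 3.49% of all with a window. The E-box CACCTG, the letters of SNAI and ZEB factors, stood before 25.9%, 25.1% and 21.3%. The cAMP response element stood before 51 genes called lower and 33 called higher. As examples of the lower ones, FN1 and DUSP1 (38- and 22.2-fold lower) are shown as windows with the element in capitals. They lie at chr2:215436069-215436318 and chr5:172771196-172771445, both on the minus strand.
FN1, lower in DCIS.COM: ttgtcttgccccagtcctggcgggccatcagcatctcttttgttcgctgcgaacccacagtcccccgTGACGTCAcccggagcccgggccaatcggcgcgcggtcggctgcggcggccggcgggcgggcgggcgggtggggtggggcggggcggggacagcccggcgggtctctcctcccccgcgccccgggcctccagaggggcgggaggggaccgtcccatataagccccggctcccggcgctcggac
DUSP1, lower in DCIS.COM: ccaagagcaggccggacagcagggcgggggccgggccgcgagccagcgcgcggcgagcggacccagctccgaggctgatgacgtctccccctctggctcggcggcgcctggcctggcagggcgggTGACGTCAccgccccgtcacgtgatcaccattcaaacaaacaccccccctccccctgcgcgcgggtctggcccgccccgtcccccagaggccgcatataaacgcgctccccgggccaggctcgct

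TGF-beta and its relatives restrain the growth of epithelial cells and induce matrix genes. Of 32 listed genes, 12 were lower and 6 higher in DCIS.COM. FSTL3, a binding protein of activin that TGF-beta induces, had 365 and 366 CPM in MCF10A and 1.87 and 1.91 CPM in DCIS.COM, and with TGFBI it was among the lower genes. The receptor TGFBR2 had 390.3 and 379.5 CPM in MCF10A and 163 and 161 CPM in DCIS.COM, the inhibitory SMAD7 13.7 and 13.5 CPM in MCF10A and 5.08 and 5.3 CPM in DCIS.COM, and the BMP target ID3 131 and 128 CPM in MCF10A and 41.8 and 40.1 CPM in DCIS.COM. On the other side, the activin antagonist FST had 0.276 and 0.443 CPM in MCF10A and 20.2 and 19.6 CPM in DCIS.COM, and the ligand BMP7 1.0 and 0.664 CPM in MCF10A and 17.3 and 15.4 CPM in DCIS.COM. TGFB1 was not called (0.23).

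The Wnt list had 6 higher and 5 lower genes of 24. The receptors FZD7 and FZD8 were higher (6.2 to 59.1 CPM and 8.86 to 53.5 CPM on average), and WNT5A, a ligand of the branch without beta-catenin, was lower, with 37.6 and 37.6 CPM in MCF10A and 1.07 and 1.53 CPM in DCIS.COM. Of 17 Notch genes, 8 were higher and 1 was lower. The receptors NOTCH1 and NOTCH3 had 24.1 and 24.3 CPM and 3.59 and 4.07 CPM in MCF10A and 139.9 and 142 CPM and 22.1 and 21.5 CPM in DCIS.COM. Their ligands JAG1, JAG2 and DLL1 were higher as well, JAG1 by 3.78-fold, JAG2 by 2.83-fold and DLL1 with 7.98 and 8.07 CPM against 1 read in MCF10A.

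Of 19 secreted defense and acute phase proteins, 10 were higher and 3 lower. The antiproteases SERPINA1 and SERPINA3 had 0.414 and 0.398 CPM and 52.1 and 53.6 CPM in MCF10A and 162 and 171 CPM and 1925 and 1927 CPM in DCIS.COM. The antiprotease SLPI and the secreted protein WFDC2 were lower, WFDC2 with 60.0 and 58.9 CPM in MCF10A and 0.933 and 1.15 CPM in DCIS.COM. Of 25 cytokines and chemokines, 12 were higher and 4 lower (7 and 2 among genes with a mean of 5 CPM or more). CXCL8 (interleukin 8) had 2.66 and 2.61 CPM in MCF10A and 132 and 109 CPM in DCIS.COM and CXCL1 had 11.7 and 12.3 CPM in MCF10A and 271 and 236 CPM in DCIS.COM, while CXCL5 had 10.6 and 10.8 CPM in MCF10A and 0 reads in DCIS.COM. The interleukin 1 receptor antagonist IL1RN was lower, with 53.6 and 57.9 CPM in MCF10A and 2.66 and 2.43 CPM in DCIS.COM, and IL1B was 8.58-fold higher. In the pLOC-MALINC1 libraries 8 of the 13 called defense genes and 11 of the 16 called cytokine genes had the same call, and the list medians turned from 2.5 to -0.83 and from 0.99 to -0.29.

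All 7 called antigen presentation genes, of 20 listed, were higher in DCIS.COM (35%, against 15.6% of all genes). HLA-B had 11.3 and 13.5 CPM in MCF10A and 127 and 122 CPM in DCIS.COM, and CD74, the invariant chain of MHC class II, had 38.2 and 38 CPM against 3 reads in MCF10A. HLA-C was not called (-0.05), and reads could be split among these close relatives. Interferon-stimulated genes were mixed, with 11 higher and 8 lower of 42 (7 higher with a pseudocount of 1 CPM). BST2 (tetherin) had 95 and 91.2 CPM in DCIS.COM and 0.103 and 0.133 CPM in MCF10A, and IFITM1 had 0.483 and 0.708 CPM in MCF10A and 22.8 and 22.4 CPM in DCIS.COM. SAMD9, an antiviral protein, was lower, with 305 and 308 CPM in MCF10A and 44.2 and 47.4 CPM in DCIS.COM.

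Few mitosis and DNA replication genes were called. Of 43 mitosis genes 1 was higher and 1 lower, and of 39 DNA replication genes 0 were higher and 2 lower, which is less than the 28.6% called over all genes. Their medians were -0.39 and -0.38, below the 0.03 of all genes, and -0.52 and 0.11 with pLOC-MALINC1. MKI67, a marker of cycling cells, had 245 and 241 CPM in MCF10A and 162 and 168 CPM in DCIS.COM. Among cyclins and their partners, E2F1, E2F2 and E2F8 were lower, E2F1 with 51.1 and 54.9 CPM in MCF10A and 16.2 and 16.1 CPM in DCIS.COM, and CDK6 was higher (3.68-fold) beside CCND2. Of 28 p53 targets, 6 were higher (21.4%, against 15.6% of all genes) and 1 was lower. The share called, 25%, was below the 28.6% over all genes. GDF15, a stress cytokine, had 3.31 and 4.12 CPM in MCF10A and 27.4 and 28.9 CPM in DCIS.COM. The lower gene was TP53I3, with 363 and 381 CPM in MCF10A and 38.3 and 43.2 CPM in DCIS.COM, and CDKN1A (p21) was not called (0.68). For the p53 list, 2 of 7 calls were repeated with pLOC-MALINC1, and the median went from 0.46 to -0.15.

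Most of the called lipid and sugar metabolism genes were higher in DCIS.COM with pLOC-empty. Of 23 genes of cholesterol synthesis 7 were higher and 0 lower, which is 30.4% called against 28.6% of all genes. Among them, HMGCS1 had 35.7 and 36 CPM in MCF10A and 106 and 113 CPM in DCIS.COM. Only 1 of these 7 had the same call with pLOC-MALINC1, where the list median was -0.33 against 0.71 with pLOC-empty. For fatty acids the counts were 5 higher and 2 lower of 15, with fatty acid synthase (FASN) at 137 and 141 CPM in MCF10A and 921 and 962 CPM in DCIS.COM and its regulator SREBF1 at 141 and 134 CPM in MCF10A and 420.2 and 439.5 CPM in DCIS.COM. Glycolysis and hypoxia genes had 10 higher and 4 lower of 32. Hexokinase 2 (HK2) had 25.9 and 27.5 CPM in MCF10A and 193 and 191 CPM in DCIS.COM and carbonic anhydrase 9 (CA9) had 4.1 and 4.34 CPM in MCF10A and 31.9 and 35.2 CPM in DCIS.COM, while the angiogenic factor VEGFA was 2.83-fold lower. Of the 14 called, 9 had the same call with pLOC-MALINC1, and the median went from 0.22 to -0.17. Of 25 NRF2 targets, 6 were higher and 5 lower. AKR1C1, a reductase of steroids and aldehydes, had 19.5 and 17.3 CPM in MCF10A and 241 and 246 CPM in DCIS.COM, and the ferritin heavy chain gene FTH1 had 2037 and 2099 CPM in MCF10A and 289 and 279 CPM in DCIS.COM. The aldehyde dehydrogenases had 7 higher and 2 lower of 16, ALDH1L1 with 20.4 and 23.5 CPM in DCIS.COM against 0 reads. Of 196 solute carriers, 43 were higher (21.9%) and 30 lower (15.3%), against 15.6% and 13.0% of all genes. The higher ones were led by the hexose transporter SLC2A6 (26.7 and 27.1 CPM in DCIS.COM against 3 reads). Ribosomal protein genes and subunits of oxidative phosphorylation were seldom called (4 of 82 and 5 of 81).

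Among 33 mammary transcription factors and nuclear receptors, 8 were lower (24.2%) and 4 higher (12.1%), against 13.0% and 15.6% of all genes. GATA2 had 21.8 and 21 CPM in MCF10A and 0.606 and 0.286 CPM in DCIS.COM, and KLF4, a factor of epithelial differentiation, had 54 and 55 CPM in MCF10A and 4.9 and 4.3 CPM in DCIS.COM. SOX9, a factor of progenitor cells, was higher, with 21.9 and 22.6 CPM in MCF10A and 150.4 and 161 CPM in DCIS.COM. GATA3, the luminal regulator, had 6.72 and 6.86 CPM in MCF10A and 5.97 and 8.97 CPM in DCIS.COM and was not called.

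Some differences went by position on the chromosome. Most of the 420 genes with ZNF symbols encode DNA-binding proteins with rows of zinc fingers. In DCIS.COM 88 of them were lower (21.0%) and 33 higher (7.86%), against 13.0% and 15.6% of all genes. Of the 194 on chromosome 19, where these genes stand in clusters, 63 were lower (32.5%) and 12 higher. On other chromosomes it was 23 of 220 (10.5%), and among the other genes of chromosome 19 76 of 721 (10.5%). The clusters were not alike. In GRCh37 (hg19), 18 of 33 were lower between 7.1 and 12.8 Mb, 17 of them at 3 reads or fewer in each DCIS.COM library. Between 19.8 and 24.3 Mb 14 of 17 were lower, and between 48.8 and 59.0 Mb 23 of 84. Between 40.5 and 45.6 Mb none of 28 was lower and 3 were higher. ZNF91, a repressor of mobile elements, had 52.4 and 48.7 CPM in MCF10A and 0.14 and 0.239 CPM in DCIS.COM. ZNF724 had 21.4 and 22.7 CPM in MCF10A and 0 reads in DCIS.COM, as had ZNF85 (14.4 and 13.6 CPM) and ZNF100 (13.6 and 14.3 CPM). The genes share sequence, so that reads could be split among them. The plot along chromosome 19 shows these clusters beside neighbors near 0.

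**Figure D4:**
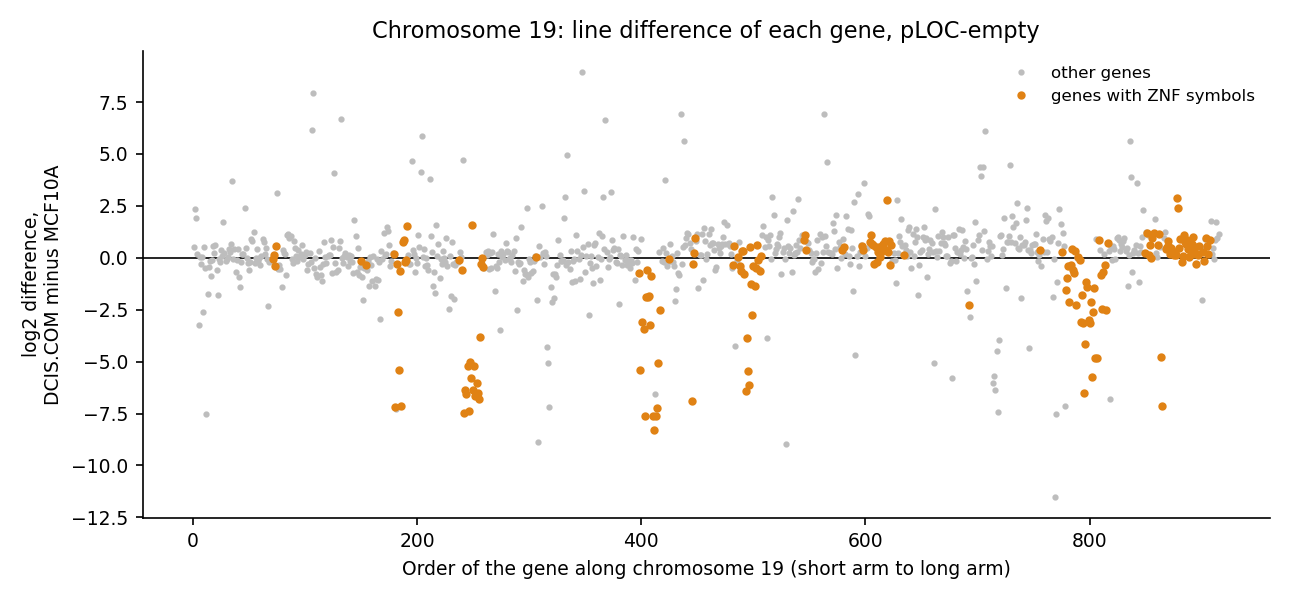
Log2 difference (DCIS.COM minus MCF10A, pLOC-empty) of each tested gene of chromosome 19, in the order of the genes along the chromosome. Orange points are the 194 genes with ZNF symbols, of which 63 were called lower, and grey points are the other 721 genes.

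Of the genes expressed in MCF10A only, 25 of 94 with a position lay on chromosome 19, 17 of them ZNF genes, while the chromosome holds 6.94% of the genes with a position. The protocadherin clusters on chromosome 5, which encode neuronal adhesion molecules, went the other way, with 16 of 22 higher and 0 lower. Their levels were low, as in PCDHB14 with 1.76 and 1.46 CPM in MCF10A and 8.44 and 8.07 CPM in DCIS.COM, and their genes share exons or sequence. Only 4 were called among genes with a mean of 5 CPM or more, and 6 with a pseudocount of 1 CPM.

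FLNA, which encodes the actin cross-linker filamin A, was singled out after its values were seen. It had 1458 and 1538 CPM in MCF10A and 11.1 and 10.8 CPM in DCIS.COM, a 136-fold difference (adjusted p = 7.24e-18 in limma), at chrX:153576892-153603002 of GRCh37 on the minus strand. The next gene, EMD, which encodes the nuclear envelope protein emerin (chrX:153607633-153609934, plus strand), had 20.5 and 21.3 CPM in MCF10A and 0 reads in DCIS.COM. The neighboring ribosomal protein gene RPL10 was not called, with a log2 difference of -0.02.

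Over whole chromosomes the median log2 differences ran from -0.28 on chromosome 18 to 0.23 on chromosomes 1, 5 and 17. In windows of 50 neighboring genes they ran from -0.73 to 1.22 over 251 windows, with quartiles of -0.19 and 0.20. The highest window lay on chromosome 1 from 3.4 to 10.5 Mb, with 46 of 50 genes above 0, and the window next to it (10.5 to 17.3 Mb) had a median of 0.89. With pLOC-MALINC1 these 2 windows had medians of 0.98 and 0.83. The window at 140.0 to 142.1 Mb of chromosome 5, with a median of 1.21, holds the protocadherins. DNA copy number was not measured in these libraries, and its part was not tested.

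The lowest window lay on chromosome 6 from 26.2 to 28.2 Mb, in the main histone cluster, and it did not repeat: its median was -0.73 with pLOC-empty and 0.28 with pLOC-MALINC1. Replication-dependent histone genes are transcribed in S phase, and their mRNAs end without a poly(A) tail. Of 61, 23 were lower in DCIS.COM and 0 higher with pLOC-empty, against 4 lower and 8 higher with pLOC-MALINC1. H1-5, a linker histone, had 809.6 and 836 CPM in MCF10A and 177 and 166 CPM in DCIS.COM. H4C13, H4C6, H3C11 and H4C9 differed from the rest, being at 0 to 2 reads in each DCIS.COM library. Near-identical histone genes can share reads. With totals without small RNAs, 15 of the 61 were lower with pLOC-empty.

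The line difference differed between the vectors for 1273 genes, 9.20% of those tested (551 upward and 722 downward with pLOC-MALINC1 relative to pLOC-empty). The vectors were carried by separate populations, so the vector cannot be told apart from other differences between these populations or their libraries. Small structural RNAs, for instance, took 17.3 to 19.2% of the reads in DCIS.COM with pLOC-empty and 10.8 to 14.7% with pLOC-MALINC1. Of the 1273 genes, 893 were among the genes called with pLOC-empty. The largest such change, among genes above the floor in every group, was that of SERPINA1, whose log2 difference was 8.45 with pLOC-empty and 0.63 with pLOC-MALINC1 (change -7.82 ± 0.16). KRT81 went from -4.52 to -12.16, and SAA1, an acute phase protein, from -0.72 to -7.25. Differences of this kind are therefore stated for the pLOC-empty libraries alone. NGFR, KRT6A and HRAS lie near the diagonal in the plot of both line differences.

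**Figure D5:**
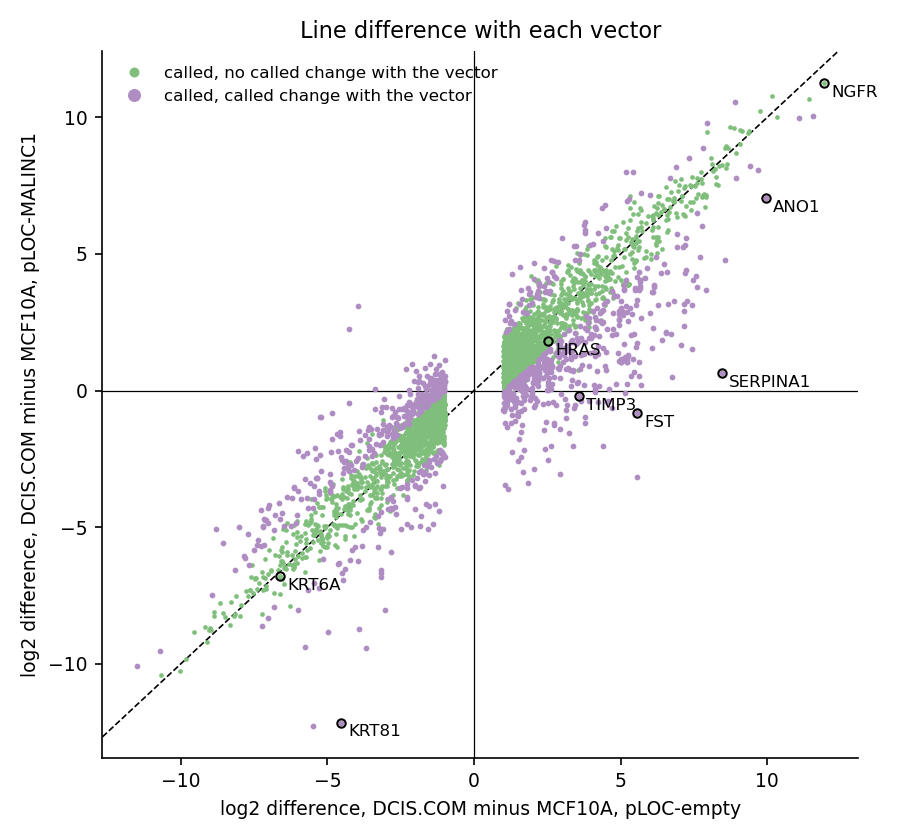
Log2 difference between the lines with pLOC-MALINC1 (vertical) against that with pLOC-empty (horizontal), for the 3959 genes called with pLOC-empty. Purple points are the 893 genes whose line difference changed with the vector, and SERPINA1, TIMP3 and FST lie near 0 on the vertical axis. On the dashed line both differences are equal, and genes without reads in a group stand at values set by the prior count.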

How the data were processed

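RNA was taken from MCF10A and DCIS.COM cells carrying pLOC-empty or pLOC-MALINC1, in 2 libraries per group (8 in all), of which the 4 pLOC-empty libraries were compared. According to the methods of the study, the authors used Rsubread to align 76 nt paired-end reads to hg19 and featureCounts to count them on UCSC knownGene genes, and deposited log2 CPM made with edgeR. Tool versions, the strand setting and the filter on low counts are not given in the sources used here. The deposited log2 values rest on a prior count of 2 scaled to library size. They were undone into whole reads, and 100% of the values came within 0.1 of a whole read. Reads of close paralogs could be split by this counting, and without a stated strand setting overlapping antisense genes cannot be told apart.

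In R 4.3.3, limma 3.58.1 (lmFit, eBayes with trend) fitted the log2 CPM of all 13842 genes as 4 group means over 8 libraries (4 residual and 7.98 prior degrees of freedom). Genes were called at a Benjamini-Hochberg adjusted p below 0.01 and over 2-fold. A linear fold is 2 raised to the fitted log2 difference, which the prior count shrinks where levels are low. Bounds and ratios for genes at the floor are instead ratios of CPM over both libraries of a line. On simulated data for this comparison (13842 genes, 200 changed), 100% of the genes changed by 1.5 or by 2 log2 units were recovered and 0 others were called. The simulation gave every gene the same small spread and used only changes above the fold threshold, in genes that were not near the floor. It therefore checks the fitting steps and does not measure the error rate in the real libraries. Positions come from the GRCh37 annotation (95.2% of genes placed) and promoter windows from RefSeq GRCh38.p14.

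Named genes were the 15 largest changes each way at 5 CPM or more in the higher line, up to 4 called members per direction of each gene list, members whose role is explained, cell type markers, genes named in the study and the 3 largest changes by vector. Small RNAs and genes of the Y chromosome and of X inactivation were left out of the named genes, and some other genes under this rule are not reported here. The comparison, its members and the gene lists were chosen with earlier results of these data known. After the table was read, histone symbols were updated and 1 list without true members was dropped. Alternatives changed the model, scaling, pseudocount, filter, thresholds and replicate block, or left out 1 library at a time. Python 3.11.15, pandas 2.3.3 and matplotlib 3.10.9 made the tables and plots.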

Additional observations from a re-analysis of the deposited data

Results flagged for a closer look

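The line difference was compared between the vectors in limma, as the line difference with pLOC-MALINC1 minus that with pLOC-empty. It changed by more than 2-fold at an adjusted p below 0.01 for 1273 genes (9.20%), and the values here are these changes on the log2 scale for genes named above. A negative value means that DCIS.COM stood lower relative to MCF10A when both carried pLOC-MALINC1. A change can come from either line, and each rests on 2 libraries per group.

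Among defense, cytokine and surface genes, the change was -7.82 for SERPINA1, -6.54 for SAA1, -4.67 for PECAM1, -3.40 for IL1B, -2.69 for LIF, -2.25 for LCN2, -2.12 for GDF15, -1.71 for CXCL8, -1.44 for CXCL1 and -1.25 for IFITM1. It was positive for CD24 (1.51) and the leukocyte marker CD68 (1.27). Most growth factor and ERK output genes had negative changes, with -4.55 for AXL, -4.10 for HBEGF, -2.5 for DUSP6, -1.98 for EREG, -1.82 for SPRY1, -1.77 for SPRY4, -1.53 for ETV4, -1.36 for TGFA and -1.17 for EGR1, while EPGN changed by 1.03. The AP-1 genes were divided, with FOS at -1.88, FOSL2 at -1.28 and FOSL1 at -1.23, against JUN at 1.5.

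Keratinocyte and basal genes also went both ways. KRT81 changed by -7.64, KRT86 by -4.83, TP63 by -3.23, KRT14 by -1.60, S100A9 by -1.58, PI3 by -1.44, S100A2 by -1.43, SPRR1B by -1.16, LAMA3 by -1.09 and LAMB3 by -1.09. On the positive side were KRT13 (3.45), SPRR3 (2.02), TGM1 (1.31) and KRT7 (1.06). Among matrix and protease genes, FN1 changed by 2.90, COL4A4 by 2.58, FBN1 by 2.23, COL4A1 by 1.61, COL4A2 by 1.21 and COL8A1 by 1.05, against -3.78 for TIMP3, -2.54 for THBS1, -2.33 for PLAT, -1.81 for MYLK and -1.15 for COL18A1.

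Of the remaining genes, FST changed by -6.38, CEBPD by -2.17, HMGCS1 by -2.07, NOTCH3 by -1.72, MT2A by -1.63, HK2 by -1.48, CA9 by -1.15 and CDKN1A by -1.01. The change was 2.47 for ID3, 1.63 for E2F8, 1.48 for GATA2, 1.47 for DUSP1, 1.43 for H1-5, 1.34 for FKBP5 and 1.10 for E2F1. No sample was tested as an outlier, since every group held 2 libraries.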

How the results depend on the processing

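The number of genes called moved most with the thresholds. Without the fold threshold, 10230 genes passed at an adjusted p below 0.01 (5240 higher, 4990 lower), 7914 of them with both vectors, and 4972 changed with the vector. Above 4-fold the counts were 1782 (989 higher, 793 lower), of which 1283 held with both vectors, and 392 changed with the vector. Among genes with a mean of 5 CPM or more, 1424 were higher and 1434 lower. The excess of higher genes in the full table (2153 against 1806) was absent there. Genes expressed in 1 line only numbered 525 with a minimum of 1 CPM, 124 with 10 CPM and 124 where 0 reads were required of the other line. Without each library in turn, 3884 to 3953 genes were called, 2111 to 2138 higher and 1773 to 1815 lower, 2734 to 2768 with both vectors, 1179 to 1208 changed with the vector and 257 to 273 in 1 line only. A group then held 1 library, assumed to vary like the others. With the remaining settings (limma voom on the recovered reads, pseudocounts, scaling, a filter at 1 CPM, the 4 libraries alone) each of these counts stayed within 1.5 times. Of 1500 counts of list members under settings other than these fold thresholds, 32 moved further. Quantile normalization gave 1932 higher and 1900 lower genes, and totals without small RNAs 2467 and 1587.

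For the 218 genes named, 3702 values were recomputed under alternatives, of which 3610 kept direction and call. Changed signs (17 values) belonged to 8 genes that were not called. They were IER3 with median centring (0.000328), quantile normalization (0.0707) and totals without small RNAs (0.105), ACTA2 (-0.0787), ESR1 (-0.0297), HLA-C (0.0160), KRT15 (0.352), MALINC1 (-0.421) and RPL10 (0.0415) with quantile normalization, and HLA-C (0.0710) and RPL10 (0.0971) with totals without small RNAs. Leaving out a library moved ACTA2 between -0.0350 and 0.0961, GATA3 between -0.184 and 0.398, MALINC1 between -0.260 and 0.297 and IER3 between -0.0581 and 0.0298. Calls were lost, apart from the 4-fold threshold, for KRT83 with limma voom (adjusted p = 0.0445) and without DCIS.COM replicate 1 or MCF10A replicate 2, for ECM1, SBSN and SPRR1B with pseudocounts or without 1 library, for FOSL2 with quantile normalization, and for ECM1, SBSN, FOSL2 and JUND with totals without small RNAs. FOS gained a call with quantile normalization (-1.02).

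The libraries share replicate numbers across groups, but the deviations of same-numbered pLOC-empty libraries had a correlation of 0.00337 between the lines, so that the numbers were not taken as pairs. With the replicate number as a block, 3962 genes were called. Depth limits genes of few reads, for which 1 read was worth up to 0.0477 CPM. With 2 libraries per group the line differences describe these populations in their media.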
